A study of Mus musculus with 54 samples.

Results

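The comparison set hematopoietic stem cells (HSC) taken 24 h after irradiation from mice that had been given dmPGE2, a stabilised analogue of prostaglandin E2, against HSC of mice that had been given the ethanol vehicle and no radiation. It asked which gene programmes lay at the unirradiated level a day after radiation with the drug, and which did not. The 8 libraries named for dmPGE2 and radiation at 24 h (24h.IR.PGE) were taken against all 15 libraries named non-irradiated vehicle (NI.VEH), 23 of the 54 libraries of the series. The names of the NI.VEH libraries do not give a time, so those of 1 h and 24 h were pooled.

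HSC came from Fgd5 reporter mice on a C57BL/6 background, in which the green protein ZsGreen marks HSC, and were sorted straight from bone marrow by a wide SLAM-LSK gate together with ZsGreen. The 24h.IR.PGE mice had 1 subcutaneous injection of dmPGE2 30 min before 8.53 Gy, and marrow was taken 24 h later; the 24h.IR.VEH mice, used as a second irradiated group, had ethanol in its place, and the 1h.IR.PGE mice had dmPGE2 and radiation and were taken at 1 h. The NI.VEH mice had the ethanol injection and no radiation. The labels give the drug as 35 µg in 3.5 µL of a 0.1 mg/ml solution, although that volume would hold 0.35 µg, so the dose is not certain. Each irradiated group had 8 libraries, 4 from females and 4 from males; nothing shows whether a library is 1 mouse, so p-values measure the spread between these libraries.

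Library totals were 17371333 to 22155084 counts in 24h.IR.PGE and 15049364 to 25278219 in NI.VEH. The 15 NI.VEH libraries carry 8 tags in their names, and 7 of the tags stand on a pair of libraries, 1 with a sample sheet number from 79 to 85 and 1 with a number from 42 to 70. Deviations from the mean of each set of sheet numbers correlated at a median of 0.608 within those 7 pairs. The median was -0.101 over the 49 other pairs of libraries across the sets. Xist with Y-linked counts gave the same sex in all 7 pairs. The 15 libraries may therefore hold fewer than 15 independent samples, and each count below was also taken with libraries of 1 tag summed and against each set of sheet numbers alone. By the same transcripts 10 NI.VEH libraries were male and 5 female, where the labels give 8 and 7. The sets differed from each other, with the tag as a block, at 978 genes that were higher and 1253 that were lower in S79 to S85. In sheet number, the S42 to S70 libraries lay among those of the 1 h groups. The S79 to S85 libraries came directly before those of the 24 h irradiated groups. The tags of both sets recur in the 1 h groups, and none recurs in the 24 h irradiated groups. The pool holds both sets, and whether they differ in time of sampling was not tested. Among the 24h.IR.PGE libraries, numbers 5, 6 and 7, all male, stood apart from the other 5 in a principal component analysis, while male library 8 lay with the 4 females; results that rest on these 3 libraries are given with and without them.

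Ionizing radiation breaks DNA, and the kinases that sense the breaks stabilise the transcription factor p53, which switches on genes for cell cycle arrest, repair, antioxidant defence and cell death. HSC are mostly quiescent, and they re-enter division after a loss of blood cells. Prostaglandin E2 acts on HSC through receptors of the EP family, of which EP2 and EP4 raise cyclic AMP and, through it, the CREB and CREM transcription factors; dmPGE2 given before radiation is known to protect mice from marrow failure.

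Cell cycle genes are ordered in time partly by short promoter sequences: E2F sites in genes of the G1/S transition and DNA replication, and the cell cycle homology region (CHR) with CCAAT boxes in genes of G2 and mitosis. The promoters of 3 cell cycle genes described below are shown for that reason, from 250 bases before to 50 bases after the RefSeq start (GRCm38.p6, the assembly of the mm10 build), 5′ to 3′ on the strand of the gene. Capitals mark the CHR, which was searched as TTTGAA, and matches to E2F sites, which were searched as TTTGGCGC or TTTCGCGC. They also mark the box of the letters CCAAT, and every motif was read on both strands.
Ccnb1: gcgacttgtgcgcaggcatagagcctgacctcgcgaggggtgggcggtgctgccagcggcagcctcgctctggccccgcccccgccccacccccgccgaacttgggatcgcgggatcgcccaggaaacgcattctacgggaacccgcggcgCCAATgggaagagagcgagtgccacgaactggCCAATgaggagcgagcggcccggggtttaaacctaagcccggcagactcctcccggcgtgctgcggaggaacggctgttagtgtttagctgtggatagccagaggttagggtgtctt
Cdk1: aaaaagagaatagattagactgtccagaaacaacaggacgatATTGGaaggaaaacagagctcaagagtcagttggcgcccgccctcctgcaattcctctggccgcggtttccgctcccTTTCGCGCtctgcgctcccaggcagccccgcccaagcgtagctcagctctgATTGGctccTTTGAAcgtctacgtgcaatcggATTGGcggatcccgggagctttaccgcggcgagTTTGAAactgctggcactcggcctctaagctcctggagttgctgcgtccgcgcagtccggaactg
Mcm5: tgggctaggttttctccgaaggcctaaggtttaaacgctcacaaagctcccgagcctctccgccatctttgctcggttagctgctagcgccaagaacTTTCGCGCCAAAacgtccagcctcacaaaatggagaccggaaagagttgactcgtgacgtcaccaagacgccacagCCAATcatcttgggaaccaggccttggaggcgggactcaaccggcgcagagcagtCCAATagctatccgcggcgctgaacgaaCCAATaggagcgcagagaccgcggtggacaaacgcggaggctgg
Ccnb1 (cyclin B1; chr13:100786437-100786736, minus strand) held 2 CCAAT boxes and no match to either other motif in this window. Cdk1, whose kinase cyclin B1 activates (chr10:69352863-69353162, minus strand), held 2 CHR, 3 CCAAT boxes, all 3 on the opposite strand, and 1 E2F match. Mcm5, a subunit of the replicative helicase (chr8:75109259-75109558, plus strand), held 2 E2F matches that overlap on opposite strands, 3 CCAAT boxes and no CHR. Of the 27025 genes with such a window, 20.2% held a CHR, 41.1% a CCAAT box and 0.929% an E2F match. Of the 58 genes listed for G2/M and mitosis 49 had a window, and 71.4% of these held a CHR and 79.6% a CCAAT box. Of the 50 genes listed for G1/S and replication 40 had a window, and 30% of these held an E2F match. These are matches of letters and not shown binding sites.

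A day after radiation with dmPGE2, most p53 targets were far above the unirradiated level and most interferon-stimulated genes moderately above it. Most ribosomal protein and respiratory chain genes were slightly above the pooled NI.VEH libraries. Against the S79 to S85 libraries alone, 22 of 75 ribosomal protein and 17 of 59 respiratory chain genes were higher. Genes of HSC identity and sterol synthesis were more often lower than higher. Genes of G2 and mitosis were more often higher than lower. Genes of G1/S were more often lower than higher, though 8 were higher and 8 lower without libraries 5 to 7. The immediate early and cyclic AMP genes went both ways. Of 14320 genes tested, 2723 (19%) were higher and 2483 (17.3%) lower in 24h.IR.PGE than in NI.VEH (edgeR's quasi-likelihood test, adjusted p below 0.05, all genes tested together). Fewer passed a test against a 1.5-fold margin: 524 genes (3.66%) were more than 1.5-fold higher and 195 (1.36%) more than 1.5-fold lower. For 6648 genes (46.4%) the 95% interval of the fold change lay wholly within 1.5-fold in either direction. That is what "within 1.5-fold" means below. A gene can be both called and within, which held for 1696 genes. Against the same NI.VEH libraries, 24h.IR.VEH had 3331 genes higher (23.3%) and 3789 lower (26.5%), and 1h.IR.PGE had 1368 higher (9.55%) and 1255 lower (8.76%); because NI.VEH is shared, these are given side by side and not as separate evidence. Directly, 24h.IR.PGE against 24h.IR.VEH gave 1781 genes higher (12.4%) and 1640 lower (11.5%), and 24h.IR.PGE against 1h.IR.PGE gave 2590 higher (18.1%) and 2605 lower (18.2%). These 3421 calls between drug and vehicle at 24 h came to 1123 without libraries 5 to 7 and to 854 without libraries 3 and 5 to 7. A fit of those 16 libraries alone, in which the other groups do not share in the estimate of the spread, gave 1514 calls (751 higher, 763 lower), and 498 without libraries 5 to 7 and the vehicle libraries of the same tag and sex. Against NI.VEH, 1525 of the 2723 higher genes and 1115 of the 2483 lower genes were also called in the same direction with same-tag libraries summed and against each set alone. Without libraries 5 to 7, 2704 of the 14320 genes were higher and 2820 lower than NI.VEH. These are the counts over all genes for the list counts given below without those libraries.

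**Figure D1:**
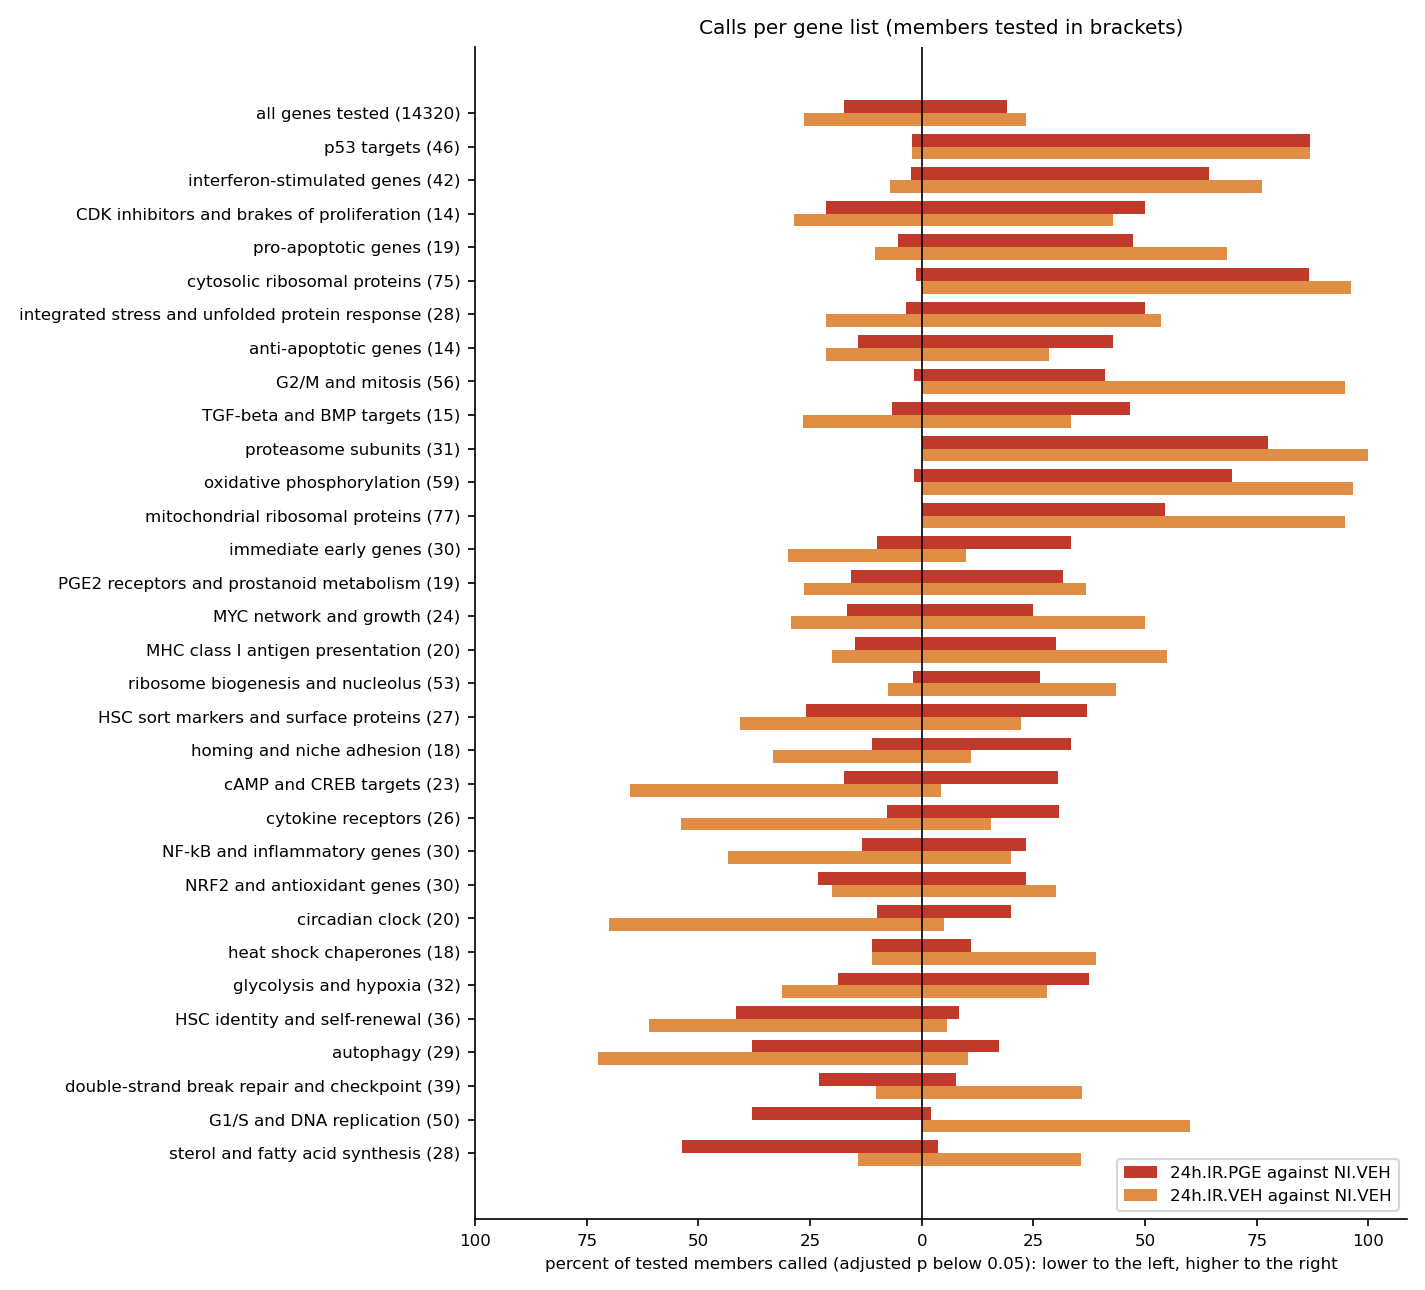
For each gene list, the percent of its tested genes called higher (right) or lower (left) than NI.VEH at an adjusted p below 0.05, in 24h.IR.PGE and in 24h.IR.VEH. In 24h.IR.PGE the p53 targets had 40 of 46 genes higher, and the G1/S list had 1 of 50 higher and 19 lower.

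At 24 h the p53 targets were the furthest from the unirradiated level of the lists described here: 40 of 46 rose, 35 of them by more than 1.5-fold, and 1 fell, with a median log2 fold change of 2.60 against -0.02 over all genes tested. In 1h.IR.PGE 15 were higher and 2 lower than NI.VEH, with a median of 0.26. Directly, 36 were higher and 5 lower at 24 h than at 1 h. The mean log2 CPM (read counts scaled to library size) of the list was 5.68 to 6.51 in 24h.IR.PGE, with a median of 6.45, and 3.62 to 3.87 in NI.VEH, with a median of 3.72. No library of one group reached the range of the other. Cdkn1a (chr17:29090986-29100722), which encodes the CDK inhibitor p21 that halts the cycle, had 493, 600 and 806 CPM as lowest, median and highest in 24h.IR.PGE and 5.73, 6.81 and 17.6 CPM in NI.VEH. The difference was 6.19 ± 0.17 on the log2 scale (SE; adjusted p = 5.9e-36), and all 8 irradiated libraries lay above all 15 unirradiated ones. In 24h.IR.VEH Cdkn1a had 620, 685 and 908 CPM, and the difference of 24h.IR.PGE from it was -0.22 (adjusted p = 0.40); 1h.IR.PGE had 228, 303 and 411 CPM.

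The p53 targets named by the rule include regulators of growth, of p53 itself and of stress. Phlda3, which restrains AKT signalling, had 181, 418 and 553 CPM in 24h.IR.PGE and 4.13, 5.59 and 7.63 CPM in NI.VEH, and rose by 6.08 ± 0.17. Mdm2, the ligase that degrades p53, had 188, 334 and 391 CPM in 24h.IR.PGE and 66.4, 86.9 and 106 CPM in NI.VEH, and rose by 1.86 ± 0.10. Sesn2, which encodes a stress sensor that restrains mTORC1, rose by 3.01 ± 0.13. Ccng1, which encodes cyclin G1, a partner in the feedback on p53, had 963, 1600 and 1830 CPM in 24h.IR.PGE and 106, 137 and 182 CPM in NI.VEH. Gdf15, a secreted stress cytokine, had 17.9, 152 and 393 CPM in 24h.IR.PGE, lowest in library 5, and 0.749, 1.35 and 2.35 CPM in NI.VEH. For all of these genes the groups did not overlap. Svop was listed at 1.55 to 14.3 CPM in 24h.IR.PGE and at 0 to 0.0448 CPM in NI.VEH.

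Pro-apoptotic genes were more often higher than lower. Of 19 pro-apoptotic genes 9 rose, 5 of them by more than 1.5-fold, 1 fell and 6 were within 1.5-fold; 6 genes of this list are p53 targets too. Bax, which opens the outer mitochondrial membrane, had 355, 394 and 439 CPM in 24h.IR.PGE and 43.1, 56.1 and 70.5 CPM in NI.VEH, a rise of 2.84 ± 0.07 (adjusted p = 8.0e-40). Bbc3, which encodes PUMA, rose by 3.14 ± 0.15, and Pmaip1, which encodes NOXA, had 11.6, 37.3 and 74.7 CPM in 24h.IR.PGE and 0, 0.636 and 1.46 CPM in NI.VEH. Both encode BH3-only proteins, which set BAX free, and neither overlapped between the groups. Bcl2l11, which encodes the BH3-only protein BIM, did not pass the test (0.39 ± 0.18, adjusted p = 0.090). Casp9, the caspase that the mitochondrial route activates first, had 15.6, 19.5 and 33.6 CPM in 24h.IR.PGE and 28.4, 38.6 and 52.5 CPM in NI.VEH and fell by 0.84 on the log2 scale. Casp8, the initiator caspase of death receptors, was within 1.5-fold (0.01 ± 0.06).

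Of 14 anti-apoptotic genes 6 rose, 2 fell and 6 were within 1.5-fold, with 6 higher and 4 lower without libraries 5 to 7. Mcl1, which encodes a short-lived BCL2 relative that HSC depend on, had 323, 353 and 696 CPM in 24h.IR.PGE and 231, 277 and 323 CPM in NI.VEH. It rose by 0.48 ± 0.09 (adjusted p = 1.9e-05), with no overlap between the groups. Perp, a p53 target that encodes a membrane protein of junctions and cell death, was picked after its values were seen, because it separated the irradiated groups. It had 20.5, 66.8 and 89.5 CPM in 24h.IR.PGE, 90.5, 197 and 245 CPM in 24h.IR.VEH and 4.42, 7.68 and 14.2 CPM in NI.VEH. Perp was above NI.VEH by 2.96 ± 0.19 and below 24h.IR.VEH by 1.57 (adjusted p = 9.6e-07; 1.28 lower, adjusted p = 0.00026, without libraries 5 to 7). Over the list of p53 targets 1 gene was higher and 8 were lower in 24h.IR.PGE than in 24h.IR.VEH, which became 0 and 4 without those libraries.

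**Figure D2:**
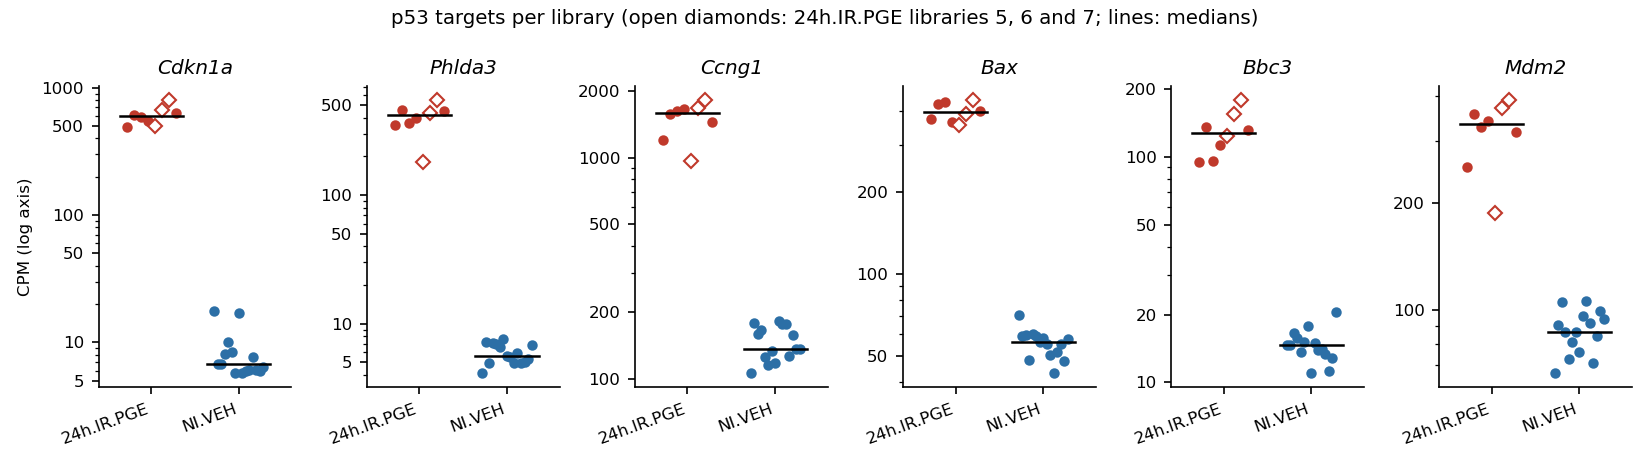
CPM on a log axis of 6 p53 targets in each library of 24h.IR.PGE (left) and NI.VEH (right), with a line at each group's median and open diamonds for libraries 5 to 7. For each gene the lowest 24h.IR.PGE library lies above the highest NI.VEH library; Bax had at least 355 CPM in the irradiated libraries and at most 70.5 CPM in the unirradiated ones.

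By the named rule, 12 genes had the largest rise, and beside Cdkn1a, Phlda3, Pmaip1, Gdf15 and Svop they were 7 others. Ddit4l, an inhibitor of mTORC1, had 19.1, 93.9 and 143 CPM in 24h.IR.PGE and 0.0854, 1.01 and 2.93 CPM in NI.VEH. Zfp365, a zinc finger gene, had 17.8, 92.7 and 117 CPM in 24h.IR.PGE and 0, 1.30 and 3.05 CPM in NI.VEH. Fam212b, an inhibitor of p21-activated kinases, had 21.1, 59.7 and 78.7 CPM in 24h.IR.PGE and 0.0427, 0.949 and 2.55 CPM in NI.VEH. Library 5 was the lowest of its group for all 3 of these genes. Mab21l3, Matn1, A930001C03Rik and D630023F18Rik stayed at or below 36 CPM in 24h.IR.PGE, and their medians of 13.1, 15.5, 16.1 and 18.7 CPM there stood against medians of 0, 0, 0.0432 and 0.0446 CPM in NI.VEH.

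The division genes split by phase. Of 50 genes of the G1/S transition and DNA replication 1 rose and 19 fell in 24h.IR.PGE, and 27 were within 1.5-fold, with a median of -0.25. Of 56 tested genes of G2/M and mitosis 23 rose, 1 fell and 14 were within 1.5-fold, with a median of 0.35. In 24h.IR.VEH, against the same NI.VEH libraries, 30 of the G1/S genes were higher and 0 lower, and 53 of the G2/M genes were higher and 0 lower. Directly, 24h.IR.PGE had 0 of the G1/S genes higher and 45 lower than 24h.IR.VEH, and 0 of the G2/M genes higher and 49 lower.

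The replication result rested on libraries 5 to 7. Their mean log2 CPM over the G1/S list was 5.51, 5.31 and 5.31, below all other libraries of the group at 6.10 to 6.61 and below NI.VEH at 6.01 to 6.53. Without them 8 G1/S genes were higher and 8 lower than NI.VEH, and the median was 0.02. The difference from 24h.IR.VEH was then 22 genes lower and 0 higher for G1/S and 29 lower and 0 higher for G2/M, while the G2/M genes against NI.VEH were 30 higher and 1 lower.

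Mcm5 had 168, 134 and 123 CPM in libraries 5 to 7, 349 to 601 CPM in the other 24h.IR.PGE libraries, and 348, 444 and 530 CPM in NI.VEH. The change of -0.31 ± 0.17 did not pass the test (adjusted p = 0.16), and without the 3 libraries it was 0.14 (adjusted p = 0.37). Pcna, the sliding clamp of DNA polymerase, had 138, 118 and 120 CPM in libraries 5 to 7, 204 to 251 CPM in the others, and 156, 192 and 221 CPM in NI.VEH. Over all 8 libraries Pcna was within 1.5-fold (-0.04 ± 0.10), and without the 3 it was higher by 0.23 (adjusted p = 0.027). Rrm2, a subunit of the reductase that makes deoxynucleotides, was the G1/S gene that rose, with 68.1, 185 and 248 CPM in 24h.IR.PGE and 72.3, 103 and 138 CPM in NI.VEH (0.77 ± 0.15, adjusted p = 5.7e-05). Ung, which removes uracil from DNA, fell by 0.89 on the log2 scale, and Slbp, which binds histone mRNA, fell by 0.39 and was within 1.5-fold.

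Ccnb1 had 198, 251, 213, 237, 207, 134, 61.4 and 215 CPM in 24h.IR.PGE libraries 1 to 8 and 55.2, 85.7 and 161 CPM in NI.VEH. Only libraries 6 and 7 fell within the unirradiated range, and the gene rose by 1.07 ± 0.20 (adjusted p = 1.8e-05). In 24h.IR.VEH Ccnb1 was higher still, at 287, 419 and 553 CPM, and 24h.IR.PGE was lower than that by 1.14 (adjusted p = 0.00027; 0.90 lower, adjusted p = 0.014, without libraries 5 to 7). Cdk1 had 68.4, 140 and 195 CPM in 24h.IR.PGE, 206, 280 and 329 CPM in 24h.IR.VEH and 65.4, 85.2 and 131 CPM in NI.VEH. It rose by 0.62 ± 0.14 against NI.VEH (adjusted p = 0.00033) and was 1.00 lower than in 24h.IR.VEH (adjusted p = 9.5e-06), and the highest 24h.IR.PGE library lay below the lowest of 24h.IR.VEH. Top2a, which untangles chromosomes, was within 1.5-fold of NI.VEH (0.10 ± 0.15). Mki67, the classic proliferation marker, had 6.53, 13.5 and 33.6 CPM in 24h.IR.PGE and 4.84, 25.7 and 81.7 CPM in NI.VEH, and its fall of 1.15 on the log2 scale was only just called (adjusted p = 0.050). Gtse1, a G2 protein that restrains p53 and is listed with the p53 targets too, rose by 3.91 ± 0.16. Among the 23 G2/M genes that rose 20 had a promoter window. Of these 65% held a CHR and 85% a CCAAT box, beside 71.4% and 79.6% over the whole list. Among the 19 G1/S genes that fell 16 had a window, and 43.8% of these held an E2F match, beside 30% over the whole list. Neither difference was tested.

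**Figure D3:**
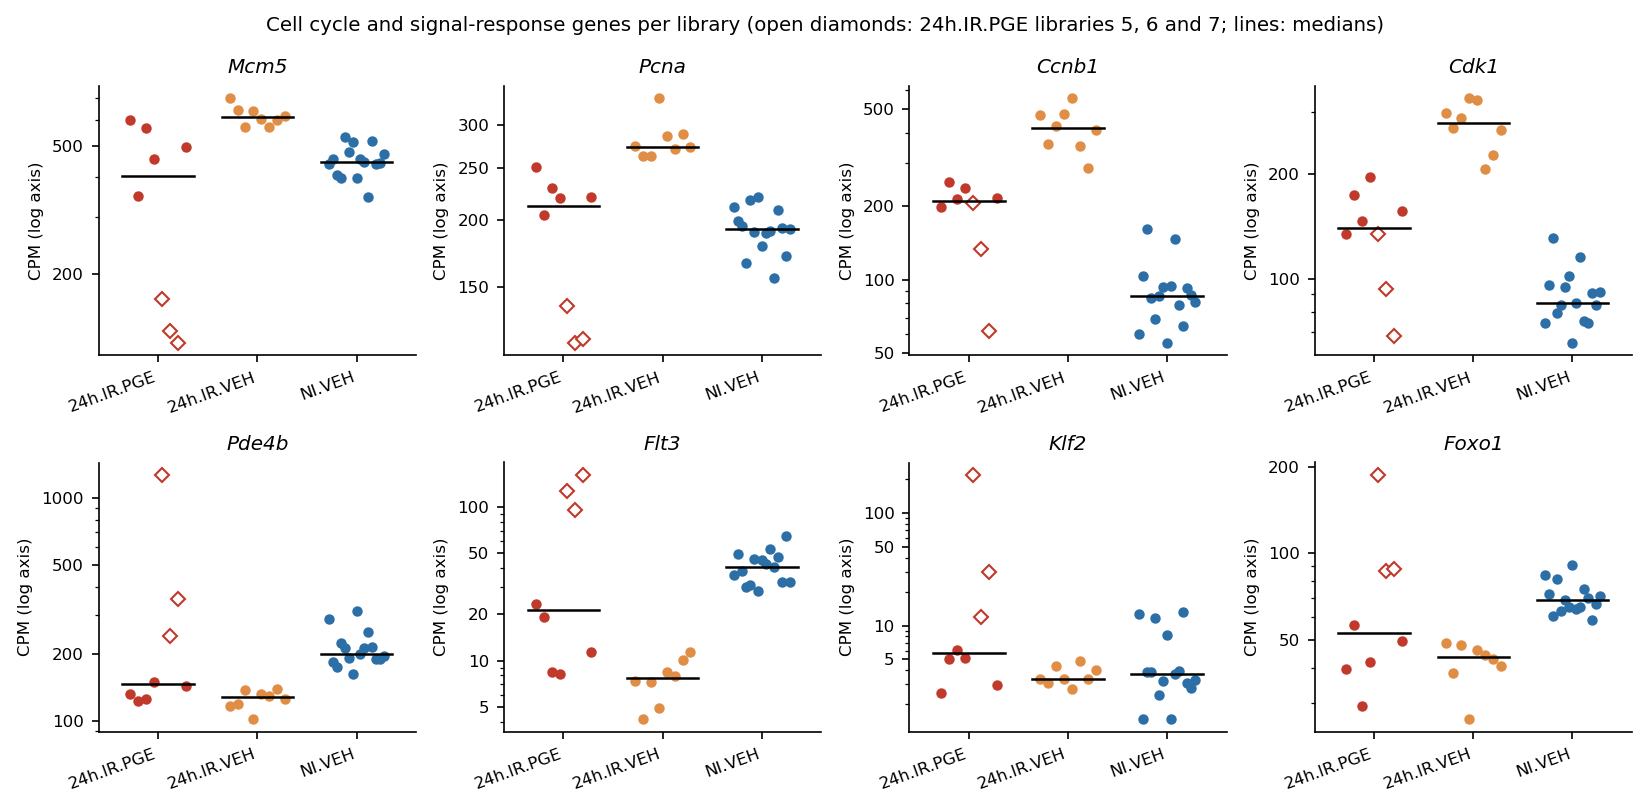
CPM on a log axis of 8 genes in each library of 24h.IR.PGE, 24h.IR.VEH and NI.VEH (left to right), with lines at the medians and open diamonds for 24h.IR.PGE libraries 5 to 7. Mcm5 and Pcna are lower, and Pde4b, Flt3, Klf2 and Foxo1 higher, in those 3 libraries than in the other 24h.IR.PGE libraries. Ccnb1 and Cdk1 have 24h.IR.PGE medians of 210 and 140 CPM, between those of 24h.IR.VEH and NI.VEH.

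Of 39 genes of double-strand break repair and the checkpoint 3 rose, 9 fell and 17 were within 1.5-fold. Over all genes tested 19% rose, 17.3% fell and 46.4% were within 1.5-fold. Without libraries 5 to 7, 3 of the 39 rose and 5 fell. Chek2, the checkpoint kinase that phosphorylates p53, had 30.0, 71.4 and 81.9 CPM in 24h.IR.PGE and 28.9, 42.5 and 55.1 CPM in NI.VEH and rose by 0.64 ± 0.12. Palb2, which brings BRCA2 to breaks, had 1.66, 7.15 and 11.4 CPM in 24h.IR.PGE and 9.21, 13.1 and 20.7 CPM in NI.VEH and fell by 0.91 on the log2 scale. Brca1 fell by 0.54 (adjusted p = 0.032), which was not called against the S79 to S85 libraries (adjusted p = 0.38) or without libraries 5 to 7 (adjusted p = 0.15).

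Of 14 brakes of proliferation 7 rose, 3 fell and 3 were within 1.5-fold, and the relatives of p21 in this list were lower. Cdkn1b, which encodes p27, had 1.45, 3.54 and 10.6 CPM in 24h.IR.PGE and 2.59, 8.96 and 13.1 CPM in NI.VEH and fell by 0.90 on the log2 scale (adjusted p = 0.0061). That fall depended on the NI.VEH set, at -0.03 against S79 to S85 and -1.38 against S42 to S70. Cdkn1c, which encodes p57, the CDK inhibitor tied to HSC quiescence, had 38.5, 46.1 and 107 CPM in 24h.IR.PGE and 49.5, 73.6 and 106 CPM in NI.VEH, a fall of 0.42 (adjusted p = 0.043; 0.12 with same-tag libraries summed). Btg2 and Tob1, antiproliferative relatives chosen after their values were seen, rose by 2.96 ± 0.22 and 2.15 ± 0.14. Ccnd1, cyclin D1, had 10.8, 47.6 and 114 CPM in 24h.IR.PGE and 12.2, 21.0 and 37.7 CPM in NI.VEH and rose by 1.31 ± 0.24; libraries 5 to 7 had 10.8, 29.0 and 17.5 CPM of it.

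The immediate early genes, which cells switch on within minutes of a signal, were mostly above the unirradiated level at 1 h and less so at 24 h. At 1 h 25 of 30 were higher and 2 lower than NI.VEH in 1h.IR.PGE, with a median of 2.60. At 24 h 10 were higher, 3 lower and 3 within 1.5-fold, with a median of 0.19, and 25 were lower and 2 higher at 24 h than at 1 h. Without libraries 5 to 7 the 24 h count became 4 higher and 6 lower, with a median of -0.07. Nr4a1, an orphan nuclear receptor, had 14.3, 20.4 and 51.7 CPM in 24h.IR.PGE, against 440, 666 and 995 CPM in 1h.IR.PGE and 7.36, 12.7 and 23 CPM in NI.VEH. Its remaining difference of 0.85 was called (adjusted p = 0.018), but not without libraries 5 to 7 (adjusted p = 0.22) or with same-tag libraries summed (adjusted p = 0.067). Junb, a partner in the AP-1 factor, had 91.5, 125 and 334 CPM in 24h.IR.PGE, 826, 1110 and 1410 CPM in 1h.IR.PGE and 44.4, 68 and 327 CPM in NI.VEH, and did not pass the test at 24 h (0.50, adjusted p = 0.15). Fos and Egr1 did not pass it either (adjusted p = 0.12 and 0.40), and in both the highest NI.VEH library, at 784 CPM for Fos and 696 CPM for Egr1, was above every 24h.IR.PGE library. Fosl1, which encodes the AP-1 member FRA1, had 2.40, 5.52 and 7.40 CPM in 24h.IR.PGE and 0, 0.438 and 1.04 CPM in NI.VEH, with no overlap. Ier5, a further immediate early gene chosen after its values were seen, had 72.3, 105 and 139 CPM in 24h.IR.PGE and 12.6, 19.3 and 26.7 CPM in NI.VEH.

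Among the 24h.IR.PGE libraries, cyclic AMP targets were highest in libraries 5 to 7. Of 23 such genes 16 were higher in 1h.IR.PGE than in NI.VEH, and 7 higher and 4 lower in 24h.IR.PGE. Without libraries 5 to 7, 1 was higher and 10 were lower at 24 h, near the 1 higher and 15 lower of 24h.IR.VEH. The mean log2 CPM of the list was 5.24, 4.28 and 4.47 in libraries 5 to 7, 3.43 to 3.73 in the others and 3.35 to 4.38 in NI.VEH. Pde4b (chr4:102254742-102607262), the phosphodiesterase that breaks down cyclic AMP, had 1270, 242 and 354 CPM in libraries 5 to 7, 123 to 150 CPM in the others, and 163, 200 and 311 CPM in NI.VEH. Over all 8 libraries it did not pass the test (0.57 ± 0.25, adjusted p = 0.067), and without the 3 it was lower by 0.66 (adjusted p = 0.00069). Crem, which encodes a cyclic AMP responsive factor, had 106, 31.0 and 26.9 CPM in libraries 5 to 7, 11.4 to 17.0 CPM in the others and 4.05, 7.19 and 20.2 CPM in NI.VEH. It rose by 1.78 ± 0.39 (adjusted p = 0.00025), and by 0.72 with no call without the 3 libraries (adjusted p = 0.17).

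The same libraries carried a wider pattern, described here with 4 genes chosen after their values were seen. Klf2, a quiescence factor of lymphocytes and vessels, had 219, 11.8 and 29.7 CPM in libraries 5 to 7, 2.5 to 6.12 CPM in the others and 1.47, 3.74 and 13.3 CPM in NI.VEH. Flt3, a cytokine receptor of multipotent and lymphoid progenitors, had 127, 95.7 and 163 CPM in those libraries, 8.14 to 23.3 CPM in the others and 28.6, 40.6 and 65.4 CPM in NI.VEH. In Flt3 no 24h.IR.PGE library lay inside the unirradiated range, with 3 above and 5 below it. Foxo1, a forkhead factor of stress resistance, had 188, 87.1 and 87.9 CPM in those libraries, 29.3 to 56.2 CPM in the others and 58.6, 68.8 and 91.1 CPM in NI.VEH. Its mean change of 0.04 joined library 5 above the NI.VEH range, libraries 6 and 7 inside it and the others below it. Dusp1, a phosphatase of MAP kinases, had 430, 74.9 and 122 CPM, 42.7 to 48.6 CPM in the others, and 47.2, 56.2 and 319 CPM in NI.VEH. Markers of lymphoid-primed progenitors moved with these libraries: their summed level was 1012, 753.5 and 791 CPM in libraries 5 to 7, 442.8 to 552.9 CPM in the others and 523.7 to 658.6 CPM in NI.VEH. B cell markers summed to 425.8, 516.2 and 1134 CPM in them, 196.4 to 407.9 CPM in the others and 236 to 705.7 CPM in NI.VEH. The part of either marker list in the pattern was not tested, and in bulk samples fewer cells of a type and less RNA per cell cannot be told apart.

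Of 30 NF-kB and inflammatory genes 7 rose, 4 fell and 8 were within 1.5-fold, where over all genes tested 19% rose and 17.3% fell. Without libraries 5 to 7, 4 were higher and 12 lower. Nfkbia, the inhibitor of NF-kB, had 243, 200 and 272 CPM in those libraries, 97.4 to 132 CPM in the others and 140, 181 and 275 CPM in NI.VEH. It was within 1.5-fold over all 8 libraries (-0.21 ± 0.15) and lower by 0.68 without the 3. Icam1, an adhesion molecule, rose in every library, with 145, 161 and 265 CPM in 24h.IR.PGE and 90.1, 106 and 122 CPM in NI.VEH (0.73 ± 0.09).

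**Figure D4:**
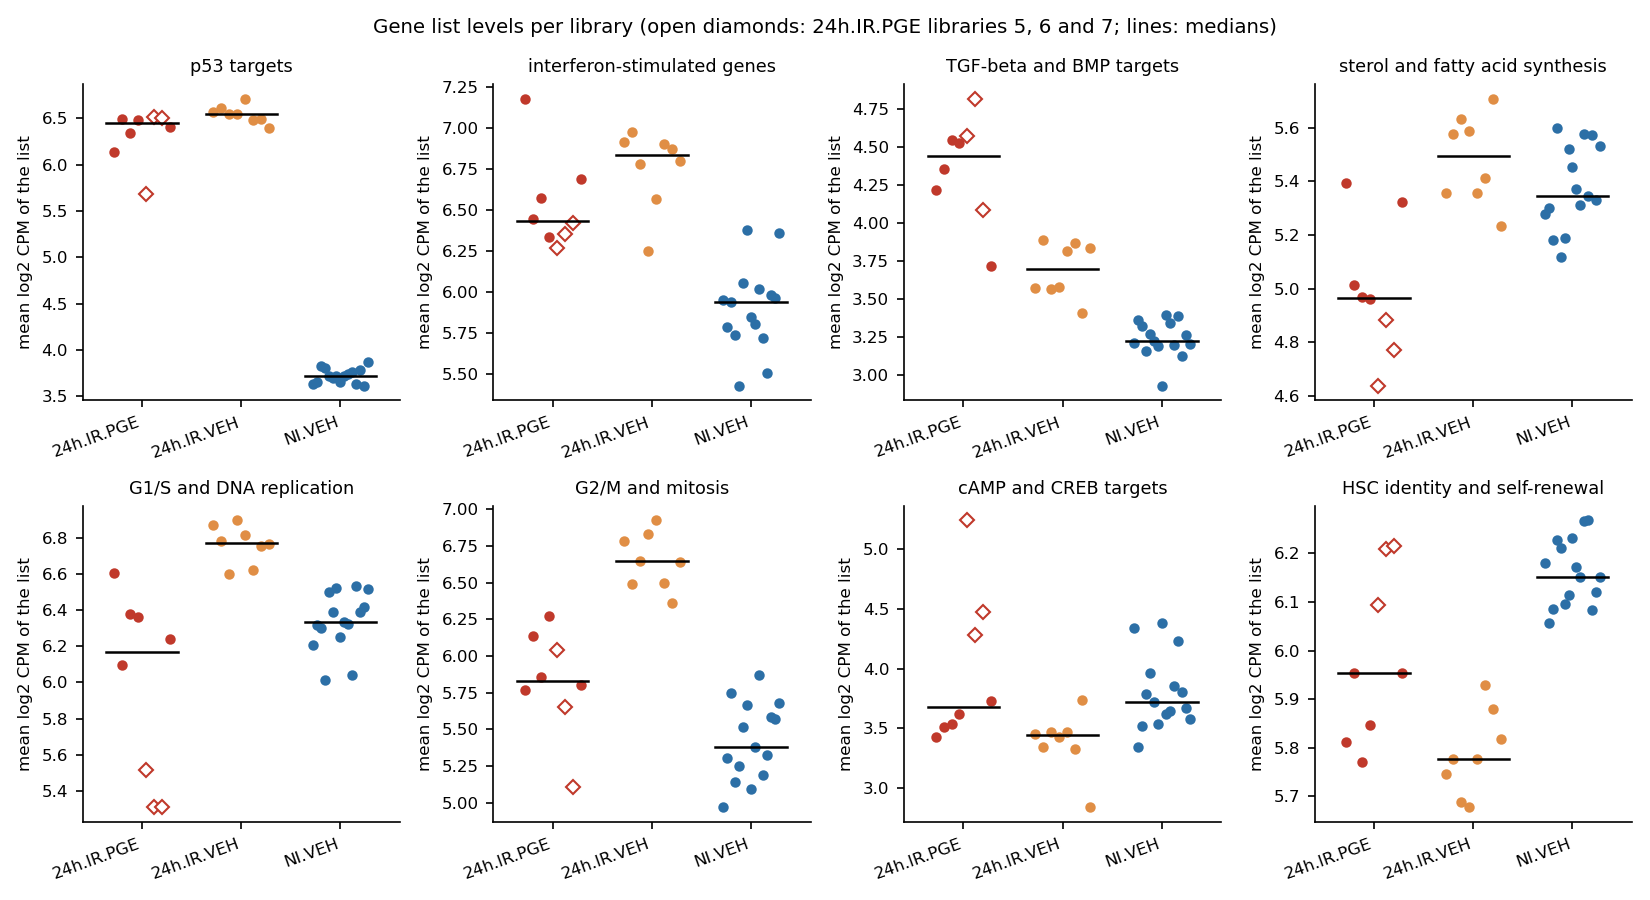
Mean log2 CPM over the tested genes of 8 lists in each library of 24h.IR.PGE, 24h.IR.VEH and NI.VEH (left to right), with lines at the medians and open diamonds for 24h.IR.PGE libraries 5 to 7. The p53 targets of 24h.IR.PGE lie at 5.68 to 6.51, above all NI.VEH libraries at 3.62 to 3.87; the G1/S list is lowest and the cyclic AMP list highest in libraries 5 to 7.

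Interferon-stimulated genes were higher at 24 h. Of 42 such genes 27 rose, 11 of them by more than 1.5-fold, 1 fell and 9 were within 1.5-fold, with a median of 0.65; without libraries 5 to 7, 29 were higher and 2 lower. At 1 h the drug and radiation had left 1 higher and 11 lower than NI.VEH, and 32 were higher and 1 lower at 24 h than at 1 h. In 24h.IR.VEH 32 were higher and 3 lower than NI.VEH, and the 2 irradiated groups differed directly at 2 genes higher and 6 lower in 24h.IR.PGE. Ifitm3 (chr7:141009590-141010744), which blocks virus entry and is high in stem cells, had 1880, 2040 and 2670 CPM in 24h.IR.PGE and 710, 904 and 1200 CPM in NI.VEH. It rose by 1.24 ± 0.09 (adjusted p = 5.4e-18), and the groups did not overlap. Irf7, the factor that amplifies the interferon response, had 118, 152 and 325 CPM in 24h.IR.PGE and 33.9, 72.3 and 132 CPM in NI.VEH, with the highest value in library 1. Ifit1, which binds foreign RNA, had 65.2, 90.9 and 187 CPM in 24h.IR.PGE, 13.4, 22.9 and 43 CPM in 1h.IR.PGE and 24.6, 45.2 and 75.1 CPM in NI.VEH. Irf1, a factor induced by interferon gamma, was the member that fell, with 121, 170 and 218 CPM in 24h.IR.PGE and 188, 256 and 303 CPM in NI.VEH (-0.60 ± 0.14).

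Antigen presentation was mostly close to the unirradiated level. Of 20 genes of MHC class I presentation 6 rose, 3 fell and 18 were within 1.5-fold. B2m, the light chain of class I molecules, had 3100, 3460 and 4200 CPM in 24h.IR.PGE and 3140, 3790 and 5220 CPM in NI.VEH (-0.11 ± 0.07, within 1.5-fold). Among the 12 genes that fell furthest by the named rule, Ciita, the switch of MHC class II genes, had 0.436, 1.53 and 3.67 CPM in 24h.IR.PGE and 2.33, 10.8 and 17.6 CPM in NI.VEH. Gbp10, which encodes a guanylate-binding protein, had 0, 0.104 and 1.37 CPM in 24h.IR.PGE, 3.48, 6.28 and 12.4 CPM in 24h.IR.VEH and 2.16, 5.21 and 22.1 CPM in NI.VEH. All 8 dmPGE2 libraries lay below every library of both other groups, and Gbp10 fell by 4.44 ± 0.60 on the log2 scale against NI.VEH and by 4.40 against 24h.IR.VEH (adjusted p = 9.2e-07). Guanylate-binding protein genes are near-identical copies, so the counting could have split their reads and the level of 1 copy is uncertain.

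Genes of HSC identity and self-renewal were more often lower than higher: of 36, 3 rose, 15 fell and 16 were within 1.5-fold, with a median of -0.08, and none passed the test for more than a 1.5-fold change. Meis1, a homeobox factor that HSC need, had 325, 410 and 515 CPM in 24h.IR.PGE and 496, 566 and 681 CPM in NI.VEH. It fell by 0.50 ± 0.07 on the log2 scale (adjusted p = 2.4e-08), with 7 of 8 libraries below every NI.VEH library. Mllt3, which maintains human HSC in culture, had 102, 133 and 167 CPM in 24h.IR.PGE and 162, 211 and 310 CPM in NI.VEH and fell by 0.71. Hlf and Mecom, transcription factors that mark HSC, fell by 0.44 (adjusted p = 0.0030) and 0.51 (adjusted p = 0.00069), although Mecom was not called against the S79 to S85 libraries (adjusted p = 0.096). Mycn, a MYC relative active in HSC, had 136, 284 and 338 CPM in 24h.IR.PGE, 87.7, 122 and 206 CPM in 1h.IR.PGE and 342, 391 and 540 CPM in NI.VEH. It was below all 15 unirradiated libraries at both times. Hoxb5, a marker of long-term HSC in mice, was within 1.5-fold (0.21), with libraries 5 to 7 at 16.9, 12.5 and 17.6 CPM against a NI.VEH range of 5.4 to 11.4 CPM. In 24h.IR.VEH 2 of the 36 genes were higher and 22 lower than NI.VEH; the direct difference of 11 higher and 3 lower in 24h.IR.PGE came to 3 higher and 1 lower without libraries 5 to 7 and to 4 higher and 3 lower in the fit of the 16 libraries alone.

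The genes of the sort itself did not move as one, and of 27 sort markers and surface proteins 10 rose, 7 fell and 8 were within 1.5-fold, with 8 higher and 11 lower without libraries 5 to 7. Kit (chr5:75574987-75656721), the stem cell factor receptor used in the gate, had 556, 779 and 993 CPM in 24h.IR.PGE and 983, 1540 and 1910 CPM in NI.VEH and fell by 0.89 ± 0.10 (adjusted p = 5.2e-10). Ly6a, which encodes Sca-1 of the same gate and was chosen after its values were seen, had 527, 758 and 1430 CPM in 24h.IR.PGE and 219, 324 and 432 CPM in NI.VEH and rose by 1.55 ± 0.13. Fgd5, the locus of the reporter, had 42.6, 66.3 and 95.7 CPM in 24h.IR.PGE and 55.4, 98.4 and 119 CPM in NI.VEH, a fall of 0.44. Slamf1, which encodes the SLAM marker CD150, fell by 0.35 (adjusted p = 0.038; 0.073 with same-tag libraries summed). All of these defining HSC markers were present in all 23 libraries. Selp, the adhesion molecule P-selectin, had 171, 289 and 1050 CPM in 24h.IR.PGE and 29.5, 65.9 and 126 CPM in NI.VEH, and Vwf, von Willebrand factor, had 57.1, 106 and 214 CPM in 24h.IR.PGE and 139, 216 and 367 CPM in NI.VEH. Both are genes that HSC share with platelets and vessels, and Selp rose by 2.35 ± 0.31 while Vwf fell by 0.98.

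Cytokine receptors, through which HSC read growth and survival signals, gave counts that depended on libraries 5 to 7. Of 26, 8 rose, 2 fell and 10 were within 1.5-fold in 24h.IR.PGE, and without those libraries 5 were higher and 7 lower, where 24h.IR.VEH had 4 higher and 14 lower. The direct difference was 17 higher and 1 lower in 24h.IR.PGE than in 24h.IR.VEH, 6 and 0 without libraries 5 to 7, and 10 and 0 in the fit of the 16 libraries alone. Csf2rb2, a signalling chain of the interleukin 3 receptor, had 23.2, 36.1 and 124 CPM in 24h.IR.PGE, 7.58, 12.6 and 20.6 CPM in 24h.IR.VEH and 4.75, 13.5 and 19.4 CPM in NI.VEH. All dmPGE2 libraries were above both other groups, libraries 5 to 7 the furthest at 124, 75.2 and 97.9 CPM, and the difference from 24h.IR.VEH of 2.04 was 1.15 without them (adjusted p = 0.0015). Csf2rb2 is a near copy of Csf2rb, and reads may have been split between them.

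Genes of sterol synthesis were more often lower than higher in 24h.IR.PGE. Of 28 genes of sterol and fatty acid synthesis 1 rose, 15 fell and 10 were within 1.5-fold, and the counts of lower genes were 12 without libraries 5 to 7 and 13 to 15 against the other forms of NI.VEH. In 24h.IR.VEH 10 of the 28 were higher and 4 lower than NI.VEH, and directly 15 were lower and 1 higher in 24h.IR.PGE, 12 and 0 without libraries 5 to 7, and 7 and 0 in the fit of the 16 libraries alone without pairs 5 to 7. Srebf2, the master transcription factor of the pathway, was chosen after its values were seen. It had 177, 221 and 233 CPM in 24h.IR.PGE and 263, 333 and 377 CPM in NI.VEH, with no overlap (-0.66 ± 0.08). Hmgcs1, an early enzyme of the pathway, did not pass the test (-0.32 ± 0.14, adjusted p = 0.071). Scd2, which makes unsaturated fatty acids, was the member that rose, with 365, 521 and 909 CPM in 24h.IR.PGE and 231, 358 and 416 CPM in NI.VEH.

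Of 19 genes for prostaglandin E2 receptors and prostanoid metabolism 6 rose, 3 fell and 7 were within 1.5-fold. The shares over all genes tested were 19%, 17.3% and 46.4%. Ptger4, which encodes the EP4 receptor, had 53.2, 69.1 and 141 CPM in 24h.IR.PGE, 37.4, 51.1 and 60.3 CPM in 24h.IR.VEH and 61.9, 84.9 and 106 CPM in NI.VEH. It was within 1.5-fold of NI.VEH (-0.05 ± 0.12) and 0.71 above 24h.IR.VEH (adjusted p = 0.00014; 0.42, adjusted p = 0.025, without libraries 5 to 7; 0.46, adjusted p = 0.10, when pairs 5 to 7 were left out of the fit of the 16 libraries alone). Ptger2, which encodes EP2, was near its detection limit, at 0, 0.374 and 4.77 CPM in 24h.IR.PGE and 0, 0.267 and 2 CPM in NI.VEH. Hpgd, the dehydrogenase that inactivates prostaglandins, had 4.37, 5.75 and 7.85 CPM in 24h.IR.PGE and 7.94, 12.8 and 38.7 CPM in NI.VEH and fell by 1.52 ± 0.30 (adjusted p = 5.8e-05), with no overlap. Alox5, the first enzyme of leukotriene synthesis, had 8.88, 29.8 and 73.4 CPM in 24h.IR.PGE and 0.937, 4.63 and 9.15 CPM in NI.VEH and rose by 2.87 ± 0.43.

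Targets of TGF-beta and BMP signalling, a brake on HSC division, were more often higher than lower. Of 15, 7 rose, 1 fell and 4 were within 1.5-fold, with 6 higher and 3 lower without libraries 5 to 7. The mean log2 CPM of the list was 3.72, 4.44 and 4.82 in 24h.IR.PGE and 2.93, 3.23 and 3.39 in NI.VEH, with no overlap. In 24h.IR.VEH it was 3.41, 3.70 and 3.89, also above every NI.VEH library, with 5 of the 15 genes higher and 4 lower than NI.VEH. Id1 and Id2 encode inhibitors of helix-loop-helix factors. Id2 had 42.2, 72.3 and 130 CPM in 24h.IR.PGE, 27.3, 37.5 and 59.2 CPM in 24h.IR.VEH and 11.4, 16.2 and 29.2 CPM in NI.VEH, a rise of 2.08 ± 0.18, and Id1 rose by 2.66 ± 0.23. Tgfbi, a secreted matrix protein chosen after its values were seen, had 103, 133 and 302 CPM in 24h.IR.PGE, 35.7, 45.6 and 55.8 CPM in 24h.IR.VEH and 30.4, 43 and 63.8 CPM in NI.VEH. All dmPGE2 libraries lay above both other groups, and without libraries 5 to 7 the difference from 24h.IR.VEH was 1.56 (adjusted p = 7.9e-05). Smad6, an inhibitor of BMP signalling, was the member that fell (-0.63 ± 0.20). Ctgf was listed at 1.06 to 14.2 CPM in 24h.IR.PGE and at 0 to 0.229 CPM in NI.VEH.

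Of 20 circadian clock genes 4 rose, 2 fell and 5 were within 1.5-fold in 24h.IR.PGE. The shares over all genes tested were 19%, 17.3% and 46.4%. Without libraries 5 to 7, 4 clock genes were higher and 6 lower, where 24h.IR.VEH had 1 higher and 14 lower. Directly 10 were higher and 1 lower in 24h.IR.PGE than in 24h.IR.VEH, 5 and 0 without libraries 5 to 7, and 6 and 1 in the fit of the 16 libraries alone. Arntl, which encodes the clock activator BMAL1, fell by 0.58 (adjusted p = 0.020), though not against the S79 to S85 libraries (adjusted p = 0.15). Per1, a clock repressor that cyclic AMP induces, had 11.6, 32.9 and 111 CPM in 24h.IR.PGE, 150, 199 and 242 CPM in 1h.IR.PGE and a median of 29.6 CPM in NI.VEH. Inside the NI.VEH range lay 6 of the 8 values at 24 h, and Per1 did not pass the test then (0.11, adjusted p = 0.79).

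Genes of protein synthesis and respiration were slightly but widely higher than in the pooled NI.VEH libraries. Of 75 cytosolic ribosomal protein genes 65 rose, 1 fell and 36 were within 1.5-fold, with a median of 0.40, and of 59 respiratory chain genes 41 rose, 1 fell and 49 were within 1.5-fold, with a median of 0.26. Of 31 proteasome subunits 24 rose and 0 fell, and 29 were within 1.5-fold. The counts and sizes depended on the NI.VEH set. Of the ribosomal protein genes 22 were higher against S79 to S85 (median 0.22) and 72 against S42 to S70 (median 0.60). Of the respiratory chain genes 17 and 53 were higher against those sets (medians 0.14 and 0.39). The sets differed directly at these genes: 72 of the 75 ribosomal protein genes and 46 of the 59 respiratory chain genes were higher in S79 to S85 than in S42 to S70, and 0 were lower, with medians of 0.38 and 0.23 on the log2 scale. Rps19, a protein of the small ribosomal subunit, had 1070, 1310 and 1340 CPM in 24h.IR.PGE and 570, 728 and 1060 CPM in NI.VEH, with no overlap, and was higher by 0.55 and 0.84 against the 2 sets. Cox4i1, a subunit of cytochrome oxidase, had 436, 532 and 593 CPM in 24h.IR.PGE and 297, 367 and 462 CPM in NI.VEH and rose by 0.52 ± 0.07.

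**Figure D5:**
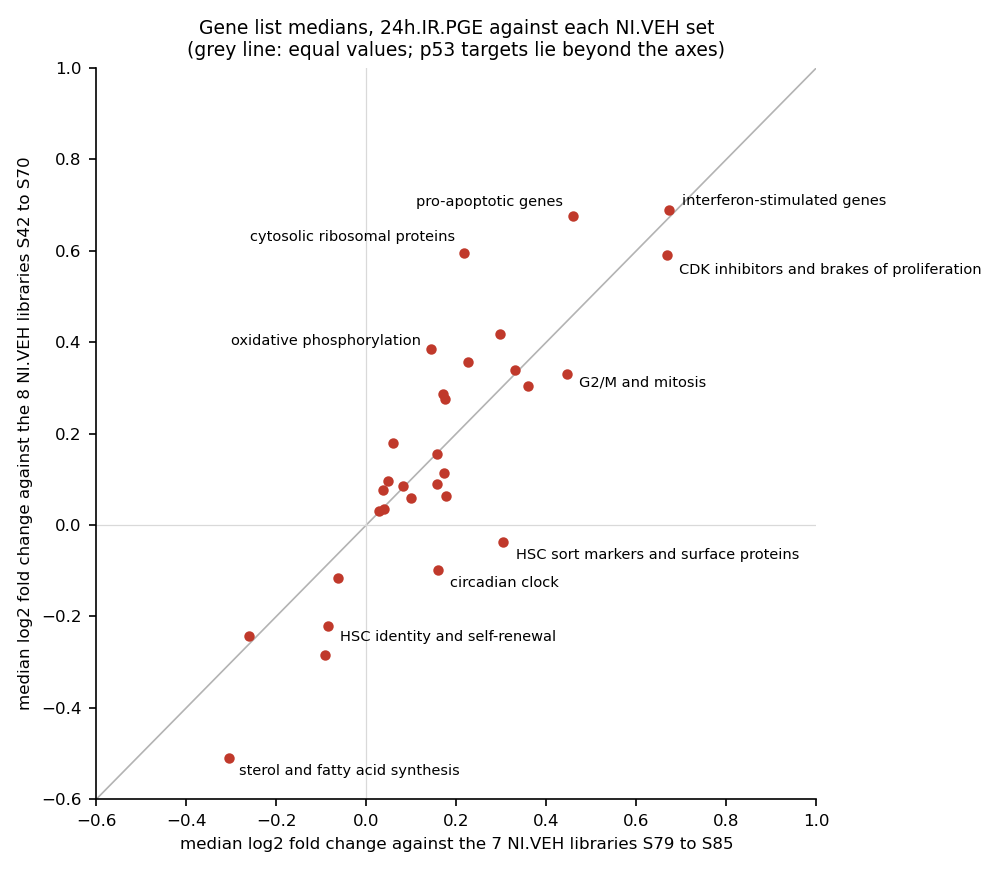
Median log2 fold change of each gene list in 24h.IR.PGE against the 7 NI.VEH libraries S79 to S85 (x axis) and against the 8 libraries S42 to S70 (y axis), with 1 point for each list, a grey line at equal values and the p53 targets beyond the axes. The ribosomal protein list lies off the line at 0.22 and 0.60, and the respiratory chain list at 0.14 and 0.39.

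Genes of ribosome assembly were mostly within 1.5-fold: of 53, 14 rose, 1 fell and 43 were within 1.5-fold. Ncl and Npm1, the major nucleolar proteins, were within 1.5-fold (-0.11 ± 0.14 and 0.19 ± 0.10). The 8 libraries were again not alike. Nop56, which guides methylation of ribosomal RNA, had 139, 165 and 161 CPM in libraries 5 to 7, all below the NI.VEH range of 180 to 268 CPM, while the other 5 lay above it. Without libraries 5 to 7, 28 of the 53 genes were higher and 0 lower.

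The metabolic and stress programmes gave mixed counts, where 19% of all genes tested were higher and 17.3% lower. Of 28 genes of the integrated stress and unfolded protein responses 14 rose, 1 fell and 12 were within 1.5-fold, against 15 higher and 6 lower in 24h.IR.VEH. Atf4, the central factor of the first of these, had 70.6, 83.7 and 96.9 CPM in 24h.IR.PGE, 47.4, 60.2 and 71.2 CPM in 24h.IR.VEH and 38.7, 55.6 and 71.7 CPM in NI.VEH. It rose by 0.58 ± 0.10 against NI.VEH and was 0.49 above 24h.IR.VEH (adjusted p = 0.0014). Trib3, which restrains ATF4, was the member that fell (-0.89 ± 0.22), and Ddit3, which encodes the death factor CHOP, was within 1.5-fold (-0.10 ± 0.15). Heme oxygenase 1, Hmox1, had 131, 211 and 451 CPM in 24h.IR.PGE and 58.6, 92.5 and 165 CPM in NI.VEH, yet 7 of 30 NRF2 and antioxidant genes rose and 7 fell, and Nqo1 was within 1.5-fold (-0.19 ± 0.12). Ldha, lactate dehydrogenase, had 2390, 3180 and 3430 CPM in 24h.IR.PGE and 1590, 1950 and 2300 CPM in NI.VEH, with no overlap; 12 of 32 genes of glycolysis and hypoxia rose and 6 fell. Of 29 autophagy genes 5 rose, 11 fell and 20 were within 1.5-fold, with 2 higher and 17 lower without libraries 5 to 7. Ulk1, the kinase that starts autophagy, had 38.5, 63.3 and 160 CPM in 24h.IR.PGE and 85.7, 133 and 157 CPM in NI.VEH and fell by 0.70 ± 0.16.

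Car1, Elane, Mpo and Klf1, known from committed progenitors, were among the 12 largest falls. Car1, a carbonic anhydrase of erythroid progenitors, was at 0 in 5 of the 8 24h.IR.PGE libraries and reached 1.94 CPM, against 10.4, 58.3 and 153 CPM in NI.VEH. Elane, neutrophil elastase, had 0.277, 2.77 and 7.88 CPM in 24h.IR.PGE and 9.46, 48.3 and 236 CPM in NI.VEH, and Mpo, myeloperoxidase, had 0.298, 11.5 and 139 CPM in 24h.IR.PGE and 99.3, 235 and 1070 CPM in NI.VEH. For Car1 and Elane all 8 libraries lay below all 15, and for Mpo 7 of 8. Klf1, the erythroid master factor, had 0, 2.31 and 7.66 CPM in 24h.IR.PGE and 5.8, 14.5 and 34.5 CPM in NI.VEH and fell by 2.71 ± 0.43. In 24h.IR.VEH Car1 reached at most 0.0938 CPM and Elane 22.3 CPM, and neither was called between the irradiated groups. Epx, Ear1 and Ear6, granule proteins of eosinophils, ranged up to 22.8, 9.16 and 2.04 CPM in 24h.IR.PGE and 287, 123 and 29.4 CPM in NI.VEH, where 0 was also found for each, so all 8 values lay inside the NI.VEH range. Ear1 and Ear6 are near-identical copies within their family, and their levels are uncertain.

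Whole marker lists of other cell types followed those genes only in part. Over all genes tested 19% rose and 17.3% fell, and the monocyte and macrophage counts below lie near those shares. Of 15 neutrophil markers 8 rose and 2 fell, which was 3 and 2 with same-tag NI.VEH libraries summed, and their summed level was 450 to 1198 CPM in 24h.IR.PGE and 357 to 1878 CPM in NI.VEH. Of 10 erythroid markers 1 rose and 3 fell (1646 to 2424 CPM in 24h.IR.PGE and 1861 to 2744 CPM in NI.VEH), of 14 monocyte and macrophage markers 3 rose and 2 fell (806.4 to 1485 CPM and 768.8 to 1441 CPM), and of 11 T and NK cell markers none was called. Of 17 megakaryocyte and platelet markers 8 rose and 4 fell, and the summed level was 4479 CPM in library 5, 2222 to 3198 CPM in the other 24h.IR.PGE libraries and 2082 to 2647 CPM in NI.VEH. Cd68, a lysosomal protein abundant in macrophages, had 97.4, 140 and 207 CPM in 24h.IR.PGE and 19.7, 31.0 and 63.5 CPM in NI.VEH and rose by 2.03 ± 0.15, while Lyz2, lysozyme of the same cells, was within 1.5-fold (-0.22 ± 0.09). Stromal markers summed to 520.3 CPM in library 1, where Col1a1, a bone collagen, had 203 CPM, and to 64.8 to 162.2 CPM in the other 7 and 85.46 to 145.6 CPM in NI.VEH. The part of other cell types in the results was not tested.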

How the data were processed

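The deposited table holds read counts per gene for 54 libraries. Per the submitters' processing notes, reads were processed with STAR 2.5.2b and featureCounts of Subread 1.5.1 on mm10; strand handling is not given in the sources used here, and no mitochondrially encoded gene is in the table. Libraries were made with SMART-Seq v4 and Nextera XT kits, per the labels' protocols; these carry no molecular identifiers.

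The members and gene lists were chosen with earlier results of these data known. All 54 libraries were fitted with 1 mean for each of 6 groups (48 residual degrees of freedom) by edgeR 4.0.16 in R 4.3.3, with TMM scaling, low counts filtered by group with a minimum of 10 (14320 of 24421 genes kept), the robust quasi-likelihood test and Benjamini-Hochberg adjustment over all genes tested. Folds above 1.5 were tested with glmTreat. CPM values are TMM-scaled; log2 CPM used a prior count of 3. The 95% intervals came from the SE. DESeq2 1.42.0, limma 3.58.1 (voom), other filters and left-out libraries were alternatives. The procedure was tested on simulated data. The named rule took the 12 genes with the largest rise and the 12 with the largest fall among called genes whose log2 CPM averaged 2 or more, key genes of each list, each list's called gene with the largest change in each direction, and each list's gene with the narrowest interval within 1.5-fold: 191 genes. Promoter windows came from RefSeq. Some of the named genes are not reported here.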

Additional observations from a re-analysis of the deposited data

Results flagged for a closer look

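Over the 42 lists looked at, 2 had a 24h.IR.PGE library far from the other 7 by the gap to its nearest neighbour, and chance flags about 1 in 20 such groups. The mean log2 CPM of the p53 targets was 5.68 in library 5, the lowest, with the nearest library at 6.14, a gap of 0.547 of the group's range where 0.526 is the critical value. For the interferon-stimulated genes library 1 was the highest at 7.18, with the nearest library at 6.69, a gap of 0.536 of the range.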

How the results depend on the processing

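The number of genes higher or lower in 24h.IR.PGE than in NI.VEH, 5206, was 4757 to 5334 when 1 library at a time was left out, that of genes within 1.5-fold, 6648, was 6299 to 6661, and that of genes more than 1.5-fold apart, 719, was 662 to 735. Of 124 recomputed counts over all genes 117 stayed within 1.5 times the value reported. The others were 3100 genes (1790 higher, 1310 lower) against the S79 to S85 libraries in place of 5206, and, for 24h.IR.PGE against 24h.IR.VEH, 1123 without libraries 5 to 7, 854 without 3 and 5 to 7, 1514 in a fit of these 16 libraries alone and 498 in that fit without pairs 5 to 7, in place of 3421. With the tag and sex that the names of these 2 groups share as a replicate block, the 16 libraries gave 1321 genes, and 384 without pairs 5 to 7. Deviations from the group mean correlated at a median of 0.109 in the 8 pairs of 1 tag and sex and -0.0161 in the 56 other pairs. They were above 0.1 in 4 of the 8 and in 5 of the 56, and 4 of 8 libraries correlated best with their own pair. These values do not settle whether the shared tag and sex pair the samples, so counts are given without and with the block. Of 3010 list counts 262 moved by more. Of 6679 recomputed values of the 191 named genes 281 lost their call, 100 gained one in the same direction and 11 changed sign. A change of sign was counted only where the main or the recomputed value was called. The cause was not tested. Without libraries 5 to 7, Pcna was 0.23, Pde4b -0.66 and Cxcl1 -2.83; without libraries 3 and 5 to 7, Pde4b was -0.64, Ramp3 -0.83, Cxcl1 -2.83 and Wipi1 -0.063. With 1 library left out at a time Cxcl1 was -2.82 (without library 5, the only 24h.IR.PGE library with counts of it) to 5.60 and Col1a1 -1.40 (without library 1, where it was high) to 3.64; Col1a1 was -1.39 by DESeq2 and -1.19 by voom. The alternatives with summed same-tag libraries, with each NI.VEH set, without libraries that stand apart and with 16 libraries alone were partly chosen after seeing the data. For 24h.IR.PGE against NI.VEH no paired analysis was possible because the NI.VEH names carry no replicate number of the labels and share no tag with the 24h.IR.PGE names, so that tag and group cannot be told apart. A comparison within 1 sex was not run because the NI.VEH names give no sex. At these library totals, genes of a few CPM such as Ptger2 and Tubb1 had wide intervals.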
